A study of Mus musculus with 178 samples.

Results

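Immediate early genes and heat shock genes were followed across 178 mouse tibialis anterior libraries, as 36 listed gene symbols among the 24421 counted. The list holds 26 immediate early genes and 10 heat shock genes, and all 36 were found in every count table. The muscle was injured with notexin, a phospholipase from snake venom to which muscle fibres succumb, and was collected undamaged and over the 14 days that followed, at 10 time points in all. Wild-type (WT) libraries numbered 137 and libraries from CCR2KO mice, which lack the chemokine receptor Ccr2 that draws monocytes from blood into tissue, numbered 41. Ages are not given in the labels.

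Of the WT libraries, 27 came from inflammatory cells (CD45+/CD31-), 16 from MP, the labels' myogenic progenitors (CD45-/CD31-/a7+/VCAM+), and 31 from endothelial cells (CD45-/CD31+). A further 32 came from FAP, the fibro-adipogenic progenitors (CD45-/CD31-/EGFP+, where EGFP reports PDGFRa). Pericytes gave 10 libraries (CD45-/CD31-/Sca1-/NG2+, from NG2 DsRed mice), and whole muscle with no sort, called total muscle here, gave 21. The CCR2KO libraries were 9 of MP, 14 of endothelial cells and 18 of FAP, each set beside WT libraries of the same gate. The other sorted populations came from PDGFRa EGFP mice of the WT B6 or CCR2KO genotype, and total muscle from WT B6 mice. The FAP, pericyte and MP gates can only collect cells that show the reporter or surface antigen they were chosen on.

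A first question was whether these genes were higher in sorted cells than in total muscle, as a measure of the stress of dissociating the tissue. The labels leave part of that contrast unsettled. The total muscle was labelled as a lysate, whereas the extraction protocol describes a digestion of the total tissue, so sorted cells and total muscle differed in sorting and in cell makeup, and perhaps in digestion. The 21 total muscle libraries carried 11 codes once their last letters were removed, and 20 of them shared a code with another library. Whether such a pair was taken from 1 animal is not given, so the spread between total muscle libraries may lie within an animal and p-values that rest on it may be too small.

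Immediate early genes are transcribed within minutes of a signal, from promoters that serum response factor, CREB and their kin already occupy, without waiting for new protein. Many encode transcription factors of the AP-1, EGR and NR4A families, and others encode inhibitors that shut the signal down again. Heat shock genes are switched on by heat shock factor when unfolded proteins draw chaperones away from it, and their products refold, hold or sort damaged proteins. Both sets are known to be switched on by enzymatic digestion and warming of tissue, and both are also known to respond to injury itself.

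Library depth ran from 1236809 to 37740952 gene counts, with a median of 13736700. Of 157 sorted libraries, 152 were closest in overall expression to their own population. The other 5 were WT libraries, MP day 2 replicate 1 and day 3 replicate 1 (closest to inflammatory cells), MP day 10 replicate 1 (closest to pericytes), and endothelial day 1 replicate 3 and day 3 replicate 5 (closest to FAP). A further 4 had over 40% of their counts outside genes, among them MP undamaged replicates 1 and 2 at 57.3% and 55.3%. These 9 libraries were doubted, and some calls changed without them, as given below. In undamaged muscle each population held its own defining markers, with summed levels of 5848 to 6074 CPM (counts scaled to a fixed library total) for 6 leukocyte markers in inflammatory cells. The 6 satellite cell markers summed to 2741 to 2908 CPM in MP, the 6 endothelial markers to 8610 to 11110 in endothelial cells, the 6 stromal progenitor markers to 43780 to 53350 in FAP and the 6 pericyte and smooth muscle markers to 33010 to 41040 in pericytes. The 8 mature myofibre markers summed to 175500 to 176500 CPM in undamaged total muscle. Pericyte libraries also held 1460 to 3846 CPM of the 4 Schwann cell markers.

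Promoters that hold the elements by which both gene sets are known to be read are shown first, chosen for those elements and not for how far the genes differed. RefSeq windows of 250 bases before the start (build GRCm38.p6) were found for 29 of the 36 members, and those of Hspa1a, Hspa1b, Hspe1, Zfp36 and Btg2 are printed, each 5′ to 3′ on the gene's strand. Capitals mark the matched motif: the paired heat shock unit GAANNTTC in Hspa1a and Hspa1b, an alternating run of GAA and TTC units, each 2 bases apart, in Hspe1, the CArG box, which serum response factor binds, in Zfp36, and the cAMP response element TGACGTCA in Btg2.
Hspa1a, chr17:34972157-34972406, minus strand: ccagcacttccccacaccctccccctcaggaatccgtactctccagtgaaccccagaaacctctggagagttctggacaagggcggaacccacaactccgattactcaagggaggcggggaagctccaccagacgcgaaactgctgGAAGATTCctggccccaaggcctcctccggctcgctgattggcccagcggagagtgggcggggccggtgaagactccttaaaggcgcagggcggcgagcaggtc
Hspa1b, chr17:34959239-34959488, minus strand: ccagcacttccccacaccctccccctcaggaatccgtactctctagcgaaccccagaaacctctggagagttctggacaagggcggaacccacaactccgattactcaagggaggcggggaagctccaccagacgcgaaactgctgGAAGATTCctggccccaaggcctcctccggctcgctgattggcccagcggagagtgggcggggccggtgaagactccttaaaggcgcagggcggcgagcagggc
Hspe1, chr1:55087898-55088147, plus strand: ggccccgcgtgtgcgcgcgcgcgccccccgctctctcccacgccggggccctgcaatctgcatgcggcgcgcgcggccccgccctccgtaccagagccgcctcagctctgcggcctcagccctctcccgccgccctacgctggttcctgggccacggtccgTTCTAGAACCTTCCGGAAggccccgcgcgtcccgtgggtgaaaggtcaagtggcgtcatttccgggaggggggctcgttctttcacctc
Zfp36, chr7:28379229-28379478, minus strand: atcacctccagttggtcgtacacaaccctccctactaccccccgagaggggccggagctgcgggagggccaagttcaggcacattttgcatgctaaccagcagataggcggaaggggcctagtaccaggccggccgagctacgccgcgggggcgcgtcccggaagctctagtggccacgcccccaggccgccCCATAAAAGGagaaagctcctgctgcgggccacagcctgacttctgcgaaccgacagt
Btg2, chr1:134079156-134079405, minus strand: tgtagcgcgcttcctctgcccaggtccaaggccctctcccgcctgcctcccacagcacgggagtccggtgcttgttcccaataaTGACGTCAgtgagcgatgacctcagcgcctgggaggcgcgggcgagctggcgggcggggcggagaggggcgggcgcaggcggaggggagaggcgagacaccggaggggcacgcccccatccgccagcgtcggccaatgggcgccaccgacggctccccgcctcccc

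A paired heat shock unit (GAANNTTC or TTCNNGAA, each of which reads the same on both strands) lay in the window of 7 of the 8 heat shock members that had one, the exception being Dnajb1. Among immediate early members it lay in 3 of 21, which were Fosl2, Jun and Egr2, and 14.5% of 27025 genes held it. A run of 3 alternating units, which overlaps the paired unit, was found in Hspd1 and Hspe1, against 0.514% of all genes, and the stretch in capitals in Hspe1 holds 2 such runs that overlap. Those genes encode the mitochondrial chaperonin and its lid and are read in opposite directions. Hspd1 has 2 windows, of which the one at chr1:55087933-55088182 overlaps the Hspe1 window and holds the same run, and the one at chr1:55088244-55088493 holds 0. TGACGTCA was found in Dusp1 and Btg2 (1.77% of all genes) and the CArG box in Egr2 and Zfp36 (1.62%), while the AP-1 site TGANTCA was found in 0 of 29 windows and in 7.82% of all genes, with both strands searched. The Hspa1a and Hspa1b windows were identical at 247 of 250 bases, and the genes' coding sequences are known to be near copies as well. Hspa1a held a median of 50.0% of the counts of the pair, with a range of 10.2% to 74.7% over 165 libraries, and how the counting split reads between them is not given, so the pair's separate values are uncertain.

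In undamaged muscle, Fos, the partner of the Jun proteins in AP-1, stood at 12.7 and 6.49 CPM in the 2 total muscle libraries. Here and below, a level is in CPM after trimmed-mean (TMM) scaling over all libraries. The same gene stood at 1649 and 1305 in inflammatory cells, at 11290, 12890 and 13940 in MP, and at 1536, 1369, 2697 and 2562 in endothelial cells. In FAP it stood at 1659, 3020 and 2447, and in pericytes at 1545 and 3912. No sorted library came near the total muscle libraries, and the MP libraries stood above every other population without overlap. How many of all genes set MP apart in this way was not computed. In plain CPM, 52.7% of all genes lay above both undamaged total muscle libraries in every undamaged library of inflammatory cells. The share was 54.8% in MP, 48.4% in endothelial cells, 48.8% in FAP and 45.2% in pericytes. The fitted log2 fold change of Fos over undamaged total muscle was 7.32 ± 0.53 (SE) in inflammatory cells, 10.44 ± 0.68 in MP, 7.73 ± 0.64 in endothelial cells, 7.94 ± 0.55 in FAP and 8.27 ± 0.61 in pericytes.

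Egr1, a zinc finger factor that is itself a target of serum response factor, had 17.6 and 10.0 CPM in undamaged total muscle. It had 241 and 702 in inflammatory cells, 13500, 14040 and 10300 in MP, and 1995, 1173, 2723 and 2490 in endothelial cells, while FAP held 2083, 4859 and 4160 and pericytes 730 and 1666. Every sorted library was above both total muscle libraries, as were 45.2% to 54.8% of all genes by population in plain CPM. Inflammatory cells had the lowest levels among the sorted populations. Atf3, a stress-induced member of the ATF and CREB family, was less far apart, at 92.4 and 36.5 CPM in undamaged total muscle and 374, 790 and 1035 in FAP.

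Hspa1a, the inducible HSP70, stood at 15.9 and 5.32 CPM in undamaged total muscle. Its levels were 2251 and 627 in inflammatory cells, 8141, 9770 and 3931 in MP, 2785, 637, 2827 and 6765 in endothelial cells, 1040, 2108 and 1985 in FAP and 370 and 506 in pericytes. Its near copy Hspa1b had 11.5 and 3.51 CPM in total muscle and 1368, 3351 and 2879 in FAP. Dnajb1, an HSP40 that hands clients to HSP70, had 15.3 and 14.0 CPM in total muscle, 339 and 416 in inflammatory cells, 5080, 8128 and 916 in MP, 451, 118, 603 and 1017 in endothelial cells, 428, 605 and 706 in FAP and 201 and 114 in pericytes. All 3 genes were higher in each undamaged sorted library than in either total muscle library. By population, 45.2% to 54.8% of all genes were higher in this way in plain CPM. The undamaged libraries of MP and of endothelial cells spread most in Dnajb1.

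**Figure D1:**
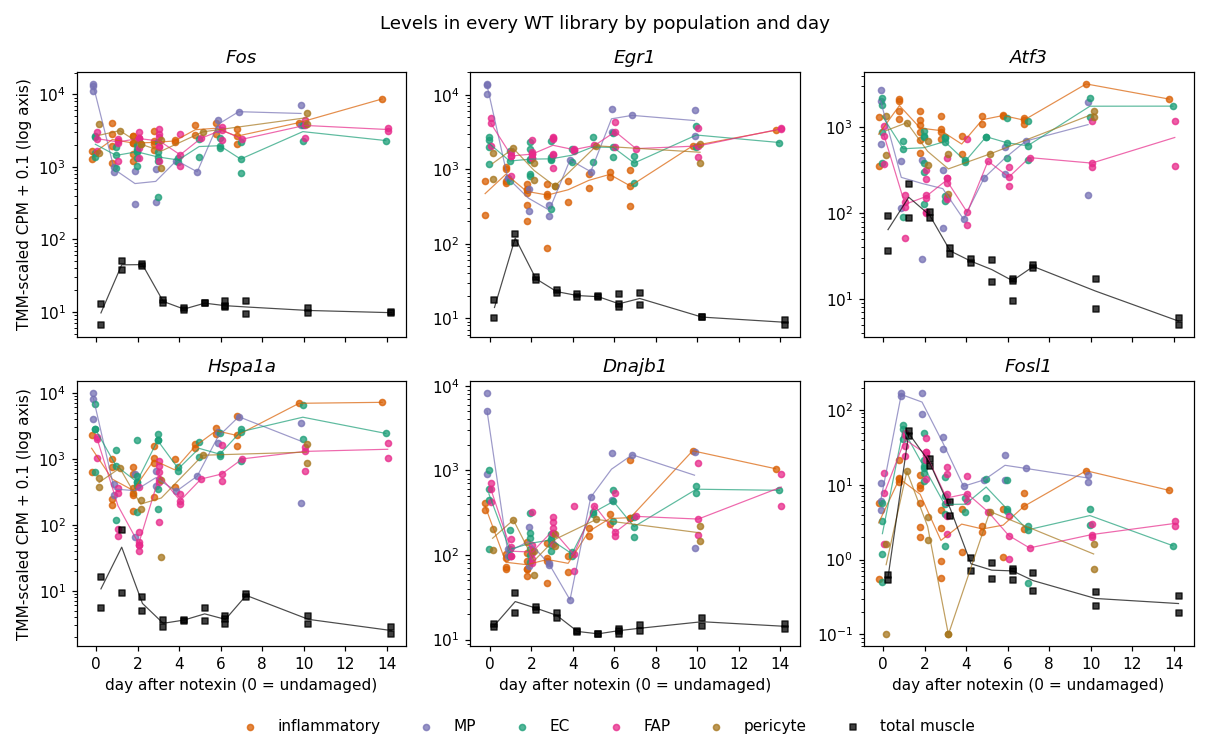
Levels of Fos, Egr1, Atf3, Hspa1a, Dnajb1 and Fosl1 by day after notexin. The y axis is TMM-scaled CPM plus 0.1 on a log axis, the x axis is the day, points are WT libraries, lines join day medians and black squares are total muscle. Fos in total muscle reaches 51.0 CPM at most and lies below every sorted library, the lowest of which, in MP, is at 310 CPM.

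A gene was called when its adjusted p (edgeR quasi-likelihood test, Benjamini-Hochberg over all genes tested) was under 0.05. In undamaged muscle, 32 members were called higher and 1 lower in inflammatory cells than in total muscle, against 30.5% and 25.3% of all genes. MP had 34 higher and 0 lower (24.6% and 21.9% of all genes), endothelial cells 30 and 1 (23.3% and 21.5%), FAP 29 and 1 (25.4% and 25.2%) and pericytes 23 and 1 (20.2% and 14.4%). The members' median log2 fold change was 4.15, 4.61, 3.92, 3.46 and 3.23 in that order of populations, where the median over all genes lay between 0.08 and 0.25. The 4 calls of a lower level were Hspb1, a small heat shock protein, in inflammatory cells (-2.24 ± 0.93, adjusted p = 0.0407), Nr4a3, an orphan nuclear receptor, in endothelial cells (-2.0 ± 0.73, 0.0225) and FAP (-2.06 ± 0.86, 0.0433), and Hspd1 in pericytes (-2.12 ± 0.63, 0.0121). Nr4a3 was at 184 and 142 CPM in undamaged total muscle, at 26.1, 29.4, 54.2 and 52.7 in endothelial cells and at 29.2, 28.0 and 61.0 in FAP. With total muscle libraries that share a code summed to 1, a setting chosen after the data were seen, the undamaged counts were 29 in inflammatory cells, 22 in MP, 26 in endothelial cells, 23 in FAP and 6 in pericytes. That setting leaves fewer samples, and its share of all genes called is not given here. With sorted libraries restricted to those with an R52 code, which all total muscle libraries carry and whose meaning is not given, the counts were 33 to 35.

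Averaged with equal weight over the days that a population shared with total muscle, 34 members were higher and 2 lower in inflammatory cells (38.1% and 43.6% of all genes), and 34 higher and 0 lower in MP (29.2% and 37.0%). Endothelial cells had 35 higher and 1 lower (37.6% and 34.3%), FAP 34 and 1 (33.3% and 39.6%) and pericytes 31 and 3 (23.6% and 29.8%). The members' median log2 fold changes were 3.66, 2.89, 3.60, 3.13 and 3.15 in that order, and those of all genes lay between -0.13 and 0.05. The comparisons share the total muscle libraries, so they are not independent of one another. With libraries that share a code summed, pericytes had 23 calls and the other populations 34 to 36, with the share of all genes not given here. In bulk RNA, fewer cells of a type and less RNA per cell cannot be told apart.

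**Figure D2:**
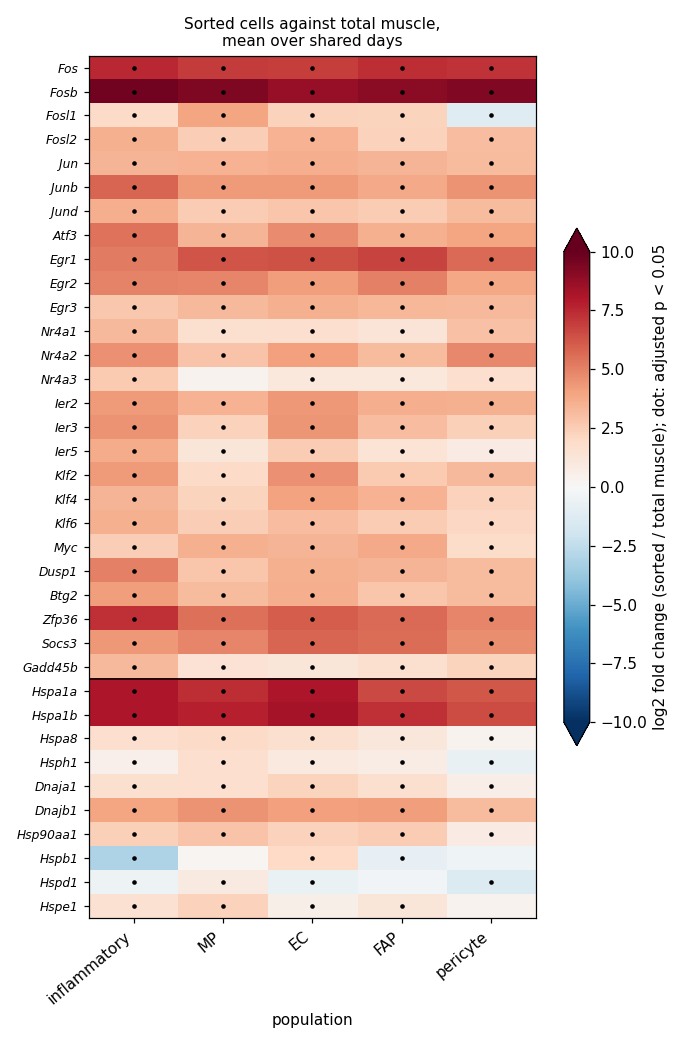
Heat map of the log2 fold change of sorted cells over total muscle, averaged over shared days, for 36 genes (rows) and 5 populations (columns). Dots mark adjusted p under 0.05, and the largest values are those of Fosb, from 8.69 to 9.63, while Hspb1, Hspd1, Hsph1 and Fosl1 change sign between populations.

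Of the 8 AP-1 and ATF3 genes, all were higher in every population over the shared days, except Fosl1 in pericytes. Fosb, a close relative of Fos, differed most, by a log2 fold change of 9.63 ± 0.23 in inflammatory cells, 9.34 ± 0.29 in MP, 8.69 ± 0.33 in endothelial cells, 9.00 ± 0.25 in FAP and 9.23 ± 0.32 in pericytes. In undamaged muscle it had 1.75 and 0.649 CPM in total muscle and 7371, 8622 and 5006 in MP, and over all WT libraries its medians lay between 683 CPM in endothelial cells and 1440 in MP, against 1.58 in total muscle (0.402 to 13.7). Fos followed with 7.55 ± 0.17, 7.03 ± 0.20, 6.89 ± 0.20, 7.35 ± 0.17 and 7.22 ± 0.24. Its medians over all WT libraries were 2384 CPM in inflammatory cells, 2262 in MP, 1613 in endothelial cells, 2463 in FAP, 2697 in pericytes and 12.7 in total muscle, and the sorted ranges overlapped one another. Junb was higher by 5.83 in inflammatory cells and by 3.80 to 4.45 elsewhere, Jun by 3.20 to 3.65, and Jund by 2.50 to 3.63. Atf3 was higher by 5.41 ± 0.19 in inflammatory cells, 4.74 ± 0.30 in endothelial cells and 3.43 to 3.93 in the others. Fosl1, which lacks the activation domain of Fos, was at 0 in both pericyte day 3 libraries, where its fitted change depends on the prior count and no fold is given. Fosl1 shares its locus with an antisense neighbour, as do Jun, Junb, Jund, Atf3, Zfp36, Dusp1, Hspa1a, Dnaja1, Hspd1 and Hspe1, and how strand was treated in counting is not given.

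All 6 EGR and NR4A genes were higher as well, with Nr4a3 in MP not called (0.37, adjusted p = 0.452). Egr1 was higher by 5.23 ± 0.21 in inflammatory cells, 6.30 ± 0.17 in MP, 6.40 ± 0.23 in endothelial cells, 6.73 ± 0.16 in FAP and 5.65 ± 0.21 in pericytes. Egr2, which is also needed for myelination by Schwann cells, was higher by 3.86 to 5.02, and Nr4a2 by 2.88 to 4.80. Nr4a1 and Nr4a3, both known to be expressed in muscle fibres, stood closer to total muscle, with differences of 1.28 to 3.27 and 0.37 to 2.60. Every one of the 7 IER, KLF and Myc genes was called higher in each population, from 0.80 for Ier5 in pericytes to 4.60 for Klf2, an endothelial flow-response factor, in endothelial cells.

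The 5 feedback inhibitors were likewise higher throughout. Zfp36, tristetraprolin, which speeds the decay of mRNAs with AU-rich tails, was higher by 7.27 ± 0.20 in inflammatory cells, 6.08 ± 0.24 in endothelial cells, 5.65 ± 0.19 in FAP, 5.54 ± 0.29 in MP and 4.85 ± 0.14 in pericytes. Its median level was 3567 CPM in inflammatory cells and 18.6 in total muscle (14.2 to 95.2). Socs3, an inhibitor of JAK-STAT signalling, was higher by 4.34 ± 0.15 in inflammatory cells and 5.86 ± 0.23 in endothelial cells, with the others between. Dusp1, a phosphatase of MAP kinases, was higher by 5.07 ± 0.15 in inflammatory cells and by 2.74 to 3.59 elsewhere. Of these 5 genes Gadd45b had the smallest difference in endothelial cells, 1.24 ± 0.24, and Btg2, an antiproliferative gene, ranged from 2.80 to 4.19.

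Among heat shock genes the inducible HSP70 pair stood far apart from the rest. Hspa1a was higher by 8.08 ± 0.34 in inflammatory cells, 7.37 ± 0.41 in MP, 8.06 ± 0.43 in endothelial cells, 6.59 ± 0.34 in FAP and 6.18 ± 0.44 in pericytes, and Hspa1b by 6.53 to 8.30. Hspa1a medians over WT libraries were 992, 619, 1171, 473 and 491 CPM, against 4.12 in total muscle (2.09 to 82.4). Hspa8, the constitutive HSP70, differed by only 0.38 ± 0.11 in pericytes to 1.89 ± 0.19 in MP. Hsph1, the HSP110 exchange factor, was higher by 0.48 to 1.67 and lower in pericytes (-0.76 ± 0.28, adjusted p = 0.0249).

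Dnajb1 was higher by 3.20 ± 0.17 in pericytes to 4.52 ± 0.31 in MP, and its levels over WT libraries had medians of 106 CPM in inflammatory cells, 327 in MP, 180 in endothelial cells, 185 in FAP and 163 in pericytes, against 14.4 in total muscle (11.4 to 35.8). Dnaja1, another HSP40, was higher by 0.68 to 2.24 and Hsp90aa1, the inducible HSP90, by 0.81 to 2.89. Hspb1, which is abundant in muscle fibres, was lower in inflammatory cells (-3.11 ± 0.34) and FAP (-0.79 ± 0.21), higher in endothelial cells (1.97 ± 0.24) and not called in MP (0.21, adjusted p = 0.581) or pericytes (-0.45, 0.331). Hspd1, the mitochondrial chaperonin, was lower in inflammatory cells (-0.54 ± 0.14), endothelial cells (-0.68 ± 0.18) and pericytes (-1.37 ± 0.28), higher in MP (0.87 ± 0.16), and not called in FAP (-0.25, adjusted p = 0.306). Its partner Hspe1 was higher by 0.61 to 2.30 in 4 populations, with 0.37 in pericytes not called.

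The strictest description, that every WT library of a population lay above all 21 total muscle libraries in plain CPM, was met by 18 members in inflammatory cells (3.18% of all genes), 9 in MP (1.93%), 12 in endothelial cells (5.21%), 12 in FAP (4.75%) and 16 in pericytes (3.8%). Fos, Fosb, Zfp36 and Dnajb1 met it in all 5 populations in plain CPM. With TMM scaling Dnajb1 no longer met it in MP, where the lowest library was at 29.4 CPM and the highest total muscle library at 35.8. The members took 0.135% to 0.455% of the counts of a total muscle library, with a median of 0.183%. Their median share in WT libraries was 2.17% in inflammatory cells, 2.53% in MP, 2.55% in endothelial cells, 1.87% in FAP and 2.00% in pericytes, and the undamaged MP libraries reached 9.15% to 14.2%.

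Other genes of the same pathways were read beside the members. Of 26 other primary response genes, 25 were higher and 1 lower than total muscle over the shared days in inflammatory cells, 22 and 1 in MP, 23 and 2 in endothelial cells, 19 and 3 in FAP and 19 and 2 in pericytes. Nfkbiz, a nuclear IκB protein, was higher by 6.50 ± 0.23 in inflammatory cells, 4.82 ± 0.28 in endothelial cells and 4.81 ± 0.22 in FAP, and Csrnp1 by 6.07 ± 0.23 in inflammatory cells and 4.28 ± 0.23 in pericytes. Of 21 other heat shock factor targets and co-chaperones, 5 were higher and 11 lower in inflammatory cells, 10 and 6 in MP, 5 and 12 in endothelial cells, 5 and 13 in FAP and 1 and 11 in pericytes. Those furthest below total muscle were small heat shock proteins of muscle fibres, with Hspb7 at a log2 fold change of -9.06 in inflammatory cells and -8.88 in FAP, Hspb8 at -8.03 in inflammatory cells and Cryab at -6.72 in inflammatory cells and -5.29 in endothelial cells. Of 8 genes of the integrated stress response, which halts translation under amino acid or unfolded protein stress, 5 were higher and 2 lower in inflammatory cells, 3 and 2 in MP, 5 and 1 in endothelial cells, 3 and 2 in FAP and 1 and 2 in pericytes, with Trib3 at 3.08 ± 0.21 and Chac1 at -3.21 ± 0.25 in endothelial cells. Over all genes, 23.6% to 38.1% were higher and 29.8% to 43.6% lower, by population, and no difference between the lists was tested.

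Total muscle contains the sorted cell types, so the level of their markers in it gives a scale for the members. This reading was chosen after the values were seen. On day 3 the 6 leukocyte markers in total muscle were at 7.63% to 36.1% (median 13.4%) of their CPM in sorted inflammatory cells, while Fos was at 0.845%, Fosb at 0.218%, Zfp36 at 1.36% and Hspa1a at 0.489% of theirs. The 6 endothelial markers were at 2.45% to 8.03% (median 3.31%) of their level in sorted endothelial cells, with Fos at 1.15% and Hspa1a at 0.256%. The 6 stromal progenitor markers were at 7.21% to 9.74% (median 8.29%) of their level in FAP, with Fos at 0.725% and Hspa1a at 0.659%. Dnajb1 did not lie below the markers, at 30.5% in inflammatory cells, 14.9% in endothelial cells and 11.1% in FAP. Of 36 members, 9 lay below the lowest marker share in inflammatory cells on day 3, 7 in endothelial cells and 12 in FAP, and on day 1 the numbers were 10, 2 and 2. In undamaged muscle they were 1, 12 and 8, with 8 in MP and 2 in pericytes. The members' undamaged median share was 3.52% in inflammatory cells, 3.805% in endothelial cells and 5.765% in FAP, against marker medians of 0.275%, 3.73% and 1.26%. It was 2.45% in MP and 7.28% in pericytes, against 7.11% and 1.47%. The share of all genes below the lowest marker was not computed, so whether these counts are unusual cannot be said. On day 3 the members' median share was above that of the markers in all 3 populations, at 14.6%, 9.93% and 13.5%, whereas in endothelial cells it was below it on day 10 (1.90% against 3.38%) and day 14 (3.74% against 6.07%). In MP on day 3, 15 members lay below the lowest satellite cell marker, with those markers at 20.25% to 182%. The members' median there was 24.6%, against 49.1% for the markers. In pericytes 4 of 35 members lay below, and the medians were 12.2% and 4.54%.

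**Figure D3:**
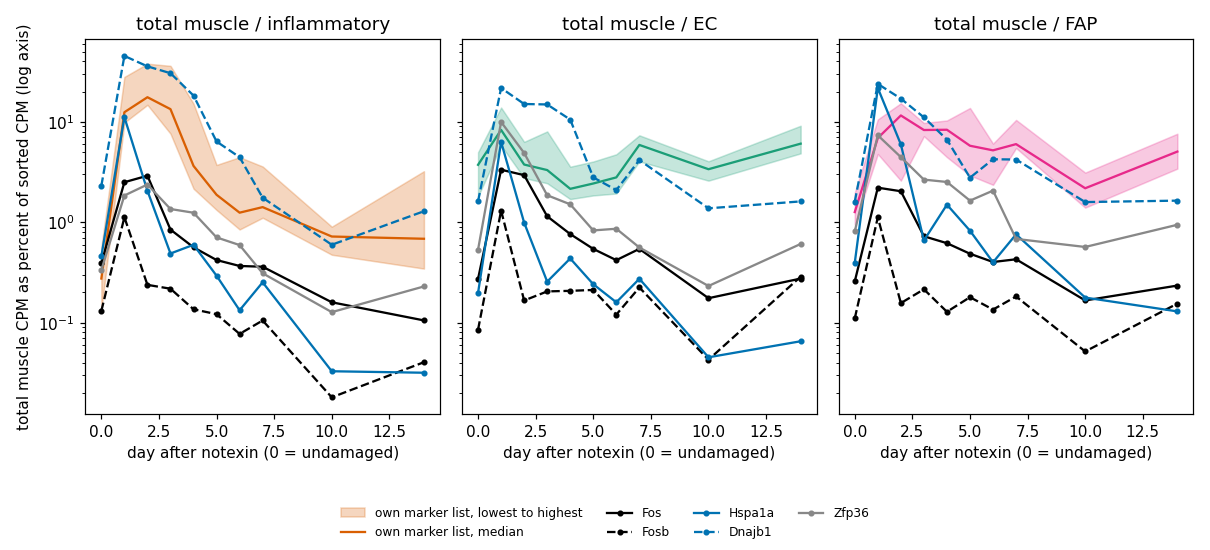
Level in total muscle as a percent of the level in sorted cells (plain CPM, log y axis) by day after notexin, for inflammatory cells, endothelial cells and FAP. The band runs from the lowest to the highest of the population's own 6 markers and the line inside is their median; Fos, Fosb and Hspa1a lie below the band on day 3 in all 3 panels, and Dnajb1 does not.

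In total muscle the genes moved with the injury. On day 1 after notexin, 26 members rose and 4 fell against undamaged muscle, where 34.9% of all genes rose and 32.2% fell. Fosl1 rose most, from 0.437 and 0.519 CPM to 44.4 and 53.1 (log2 fold change 6.68 ± 0.33, adjusted p = 5.12e-11). Fos went from 12.7 and 6.49 CPM to 37.9 and 51.0 (2.28 ± 0.22, 7.22e-08) and Egr1 from 17.6 and 10.0 to 104 and 135 (3.17 ± 0.22, 1.87e-09). For these 3 genes both day 1 libraries were above both undamaged ones, and the share of all genes ordered in this way was not computed. Socs3 rose by 3.85 ± 0.23, Myc by 3.55 ± 0.23 and Fosb by 3.16 ± 0.45. By role, 6 of 8 AP-1 and ATF3 genes rose and 1 fell, 3 of 6 EGR and NR4A genes rose and 2 fell, all 7 IER, KLF and Myc genes rose, and 4 of 5 feedback inhibitors rose.

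Nr4a3 fell from 184 and 142 CPM to 12.0 and 32.3 in total muscle (-2.84 ± 0.43, adjusted p = 1.33e-05), Nr4a1 by 1.38 ± 0.13, and Jun from 294 and 262 CPM to 118 and 147 (-1.02 ± 0.15). Over the same interval the 8 mature myofibre markers went from 175500 to 176500 CPM to 82830 to 96810, and the 6 leukocyte markers from 14.9 to 17.4 CPM to 655 to 955. The part of that change in cell makeup in the members' changes was not tested.

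Among the 6 members read with 1 library left out, the day 1 rises of Hspa1a, Hspa1b and Atf3 in total muscle rested on single libraries. Hspa1a was at 9.03 CPM in 1 day 1 library and 82.4 in the other, against 15.9 and 5.32 undamaged, so the groups overlapped. Its rise of 2.16 ± 0.64 (adjusted p = 0.00593) became -0.15 (0.761) without day 1 replicate 2 and 1.57 (0.0889) without undamaged replicate 2. Hspa1b was at 10.9 and 101 CPM against 11.5 and 3.51, and its rise of 2.96 ± 0.68 became 0.62 (0.232) without day 1 replicate 2. Atf3, at 87.1 and 221 CPM against 92.4 and 36.5, rose by 1.31 ± 0.40 (0.00813), and this became 0.79 (0.139) without undamaged replicate 2 and 0.50 (0.290) without day 1 replicate 2. Dnajb1, at 20.4 and 35.8 CPM against 15.3 and 14.0, rose by 0.98 ± 0.20 and by 0.54 (adjusted p = 0.0117) without day 1 replicate 2. All 4 HSP40, HSP90 and small heat shock protein genes rose, with Hsp90aa1 at 1.67 and Hspb1 at 1.48, and of the chaperonin pair Hspe1 fell by 0.24. The fall of Hspe1 depended on the scaling. In plain CPM its mean in total muscle was higher on day 1, at 64.9, than in undamaged muscle, at 44.7.

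On day 3, 16 members were higher and 6 lower than in undamaged total muscle (34.2% and 31.7% of all genes). Fosl1 was at 3.68 and 5.73 CPM (3.40 ± 0.41) and Nr4a3 at 14.7 and 7.36 (-3.76 ± 0.46), and Hsp90aa1 had gone from 62.4 and 53.5 CPM to 199 and 227 (2.01). Fos had come back to 13.1 and 14.6 CPM, a log2 fold change of 0.68 (adjusted p = 0.0168), which was 0.26 (0.363) without undamaged replicate 2 and 0.58 (0.0879) without day 3 replicate 2. The day 3 rise of Egr1 of 0.85 became 0.49 (0.0974) without undamaged replicate 2, and that of Dnajb1 of 0.53 (0.0320) became 0.59 (0.0704), 0.46 (0.152) and 0.40 (0.183) without undamaged replicate 1, undamaged replicate 2 or day 3 replicate 2. With libraries sharing a code summed, 26 members were called on day 1 and 15 on day 3, with the share of all genes not given here.

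**Figure D4:**
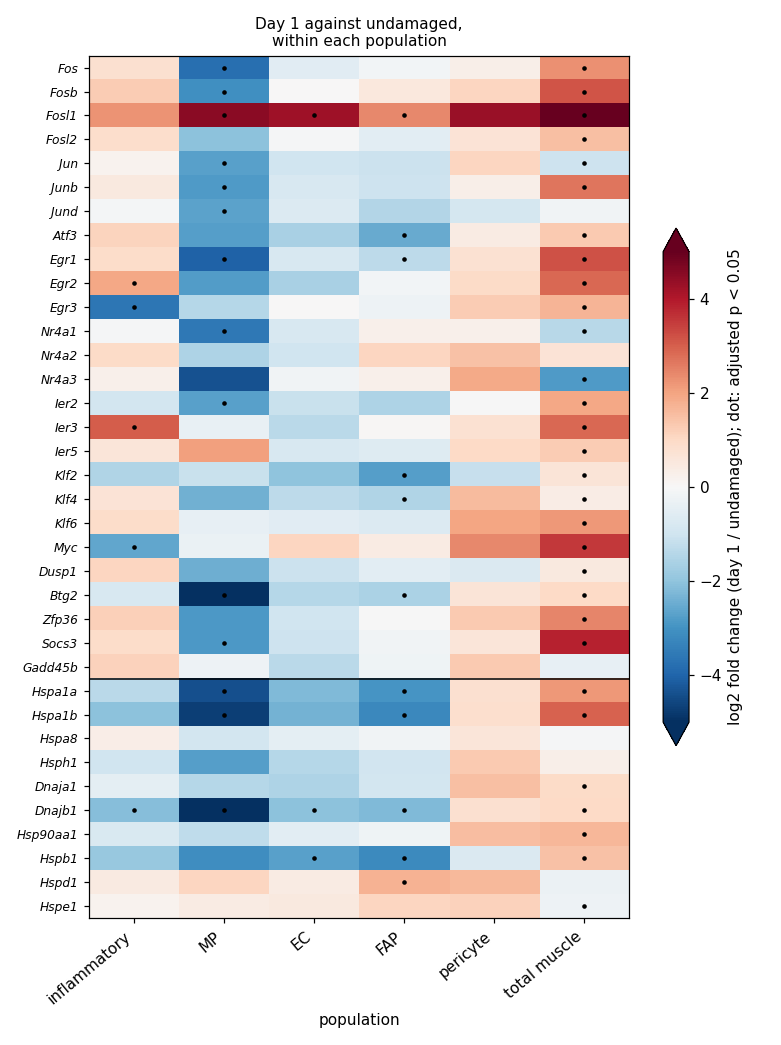
Heat map of the log2 fold change from undamaged muscle to day 1 for 36 genes (rows) in the 5 sorted populations and total muscle (columns), with dots at adjusted p under 0.05. Dots fill most of the total muscle column (30 genes, 26 of them higher), and Fosl1 is higher in MP, endothelial cells, FAP and total muscle.

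Within sorted cells the picture was unlike that of total muscle. In FAP, 2 members rose on day 1 and 9 fell (12.7% and 14.0% of all genes). Fosl1 rose from 1.54, 14.1 and 7.65 CPM to 24.5, 33.5, 48.9 and 47.0, without overlap (2.40 ± 0.63, adjusted p = 0.00564), and Hspd1 rose by 1.74 ± 0.64. Hspa1b fell most, from 1368, 3351 and 2879 CPM to 489, 104, 317 and 98.5 (-3.22 ± 0.78, 0.00301), and Hspa1a went from 1040, 2108 and 1985 to 365, 86.9, 301 and 68.3 (-2.95 ± 0.72). Dnajb1 went from 428, 605 and 706 CPM to 154, 96.6, 124 and 97.5 (-2.20 ± 0.59), and Hspb1 from 267, 649 and 398 to 68.2, 42.7, 34.2 and 35.1 (-3.18 ± 0.61). In all 4 genes each day 1 library lay below each undamaged one. How many of all genes did not overlap between these groups was not computed.

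Atf3 in FAP fell from 374, 790 and 1035 CPM to 165, 137, 117 and 50.9 (-2.54 ± 0.63, adjusted p = 0.00372), Klf2 by 2.74 ± 0.59 and Egr1 from 2083, 4859 and 4160 to 1732, 1499, 1526 and 823 (-1.30 ± 0.36). Fos did not pass the test, at 2126, 2418, 2295 and 1220 CPM on day 1 against 1659, 3020 and 2447 (-0.13, adjusted p = 0.832). On day 3, 0 members of FAP were called higher and 5 lower (11.2% and 7.93% of all genes). Hsph1 fell most, from 205, 380 and 680 CPM to 87.8, 87.1, 89.1, 68.7, 47.5 and 113 (-2.34 ± 0.60, adjusted p = 0.00641). The day 3 count was 2 without undamaged replicate 2 or 3, and 3 without any of day 3 replicates 1 to 5. Among the named calls, those of Atf3 (-1.54, 0.0493) and Dnajb1 (-1.48, 0.0463) were lost in each of these, with adjusted p of 0.0641 to 0.254 for Atf3 and 0.0551 to 0.187 for Dnajb1.

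In endothelial cells 1 member rose on day 1 and 2 fell (3.25% and 2.19% of all genes). Fosl1 went from 1.07, 0.397, 3.18 and 5.54 CPM to 41.5, 62.7 and 54.9 (4.23 ± 0.71, adjusted p = 0.000971). Dnajb1 went from 451, 118, 603 and 1017 CPM to 200, 117 and 98.0 (-2.05 ± 0.50, 0.0157), and Hspb1 from 1778, 412, 1333 and 5105 to 557, 270 and 209 (-2.72 ± 0.74, 0.0284). Fosl1 did not overlap between the groups, and the ranges of Dnajb1 and Hspb1 did. For all genes, overlap between these groups was not computed. The count was 1, a higher member, without undamaged replicate 4, day 1 replicate 2 or day 1 replicate 3, and 1 without the doubted libraries, and Dnajb1 had adjusted p of 0.0653, 0.0723, 0.119 and 0.105 in turn. The 6 stromal progenitor markers summed to 90.2 to 9300 CPM over the 3 day 1 libraries and to 272 to 9502 over the 4 undamaged ones, and their part in these results was not tested. On day 3, 0 members were called higher and 1 lower (4.76% and 1.78% of all genes), Dnajb1 at 151, 133, 176, 111 and 155 CPM (-1.87 ± 0.41, adjusted p = 0.00955). That count was 0 without undamaged replicate 4, 2 without day 3 replicate 1 or 4, 7 without day 3 replicate 2 and 8 without undamaged replicate 2. It was 8 with the R52 code as a covariate.

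In inflammatory cells 2 members rose on day 1 and 3 fell (8.03% and 11.1% of all genes). Ier3, which modulates cell survival, rose from 191 and 42.2 CPM to 1170, 805, 795 and 942 (3.05 ± 0.73, adjusted p = 0.00638) and Egr2 by 1.94 ± 0.44. Egr3 fell from 46.1 and 474 CPM to 12.4, 19.5, 22.7 and 28.2 (-3.61 ± 0.71, 0.00158), Myc by 2.60 ± 0.57, and Dnajb1 from 339 and 416 to 102, 68.5, 92.3 and 71.6 (-2.13 ± 0.48). Fos was not called, with 1147, 4045, 1949 and 2819 CPM on day 1 against 1649 and 1305 (0.81, adjusted p = 0.198). On day 3, 0 were higher and 7 lower (7.08% and 10.3% of all genes), led by Egr3 at 7.06, 4.76, 11.0 and 0.940 CPM (-5.50 ± 0.76, 6.67e-05). Without undamaged replicate 2, which leaves 1 undamaged library, the counts were 0 on day 1 and 2 on day 3, and it was 12 on day 3 with the R52 code as a covariate. Neutrophil markers (5 genes) summed to 317 to 1678 CPM undamaged, 792 to 1548 on day 1 and 156 to 216 on day 3, and the part of this change in cell makeup was not tested.

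MP had the largest number of falls. On day 1, 1 member rose and 13 fell (9.61% and 6.5% of all genes). Fosl1 went from 10.4, 5.93 and 4.54 CPM to 167 and 156 (4.53 ± 0.49, adjusted p = 0.000513). Dnajb1 went from 5080, 8128 and 916 to 119 and 97.7 (-5.46 ± 1.32, 0.0170), Egr1 from 13500, 14040 and 10300 to 772 and 758 (-4.05 ± 0.65), Fos from 11290, 12890 and 13940 to 853 and 998 (-3.78 ± 0.72), and Hspa1a from 8141, 9770 and 3931 to 285 and 410 (-4.39 ± 1.24, 0.0336). Each day 1 library lay below each undamaged one for these 4 genes, and the share of all genes that did so was not computed. The MP day 1 count was 4 without either day 1 library and 9 without undamaged replicate 2. The call of Hspa1a was lost without undamaged replicate 1 or 2 or either day 1 library (adjusted p 0.0721 to 0.157), and that of Dnajb1 without either day 1 library (0.0967 and 0.115).

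On day 3, 1 member of MP was higher and 24 lower than undamaged (17.7% and 14.4% of all genes). Nr4a3 fell most, from 385, 465 and 75.2 CPM to 2.92 and 2.56 (-6.71 ± 1.84, adjusted p = 0.0174), Fos was at 931 and 331 (-4.19 ± 0.73) and Egr1 at 333 and 232 (-5.36 ± 0.70). Fosl1 was higher, at 30.0 and 43.2 CPM (2.49 ± 0.47). The day 3 calls of Dnajb1, Hspa1a and Hspa1b as lower were lost without either day 3 library. That of Hspa1a was also lost without undamaged replicate 1 or 2. That of Dnajb1 was lost without the doubted libraries as well, at a log2 fold change of -3.44 from undamaged replicate 3 to day 3 replicate 2. The count was 20 without the doubted libraries, 13 without day 3 replicate 1 and 10 without day 3 replicate 2. Undamaged MP replicates 1 and 2 are the libraries with 57.3% and 55.3% of their counts outside genes. Replicate 3 held Fos at 13940 CPM too, but Nr4a3 only at 75.2, Hsph1 at 297 and Hspb1 at 439 CPM. Replicates 1 and 2 held Hsph1 at 3585 and 3818 CPM and Hspb1 at 1998 and 2566. The part of the counts outside genes in these levels was not tested. The 6 leukocyte markers summed to 13.3 to 22.9 CPM in undamaged MP and to 978 to 5215 on day 3, and the 6 stromal progenitor markers went from 1988 to 4249 down to 660 to 691 on day 1, while the satellite cell markers lay at 2741 to 2908 and 2846 to 2956. The part of these cells was not tested. Over longer periods, chosen after the values were seen, the median of Fos in MP was 12890 CPM undamaged, 868 over days 1 to 4 and 4121 over days 5 to 14.

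Pericytes had 1 library on day 1 and 2 on day 3, and edgeR called 0 members on either day, where 0.00661% and 0.0397% of all genes were called. At an unadjusted p under 0.05 there were 0 members on day 1 and 2 on day 3, and DESeq2 called 0. For all genes the unadjusted share was not computed. Fos stood at 3164 CPM on day 1 and 957 and 2353 on day 3, against 1545 and 3912 undamaged. Without day 3 replicate 2, that day rested on replicate 1, the shallowest of all libraries at 1236809 counts. The log2 fold changes were then -1.45 for Fos and -3.68 for Hspa1a, against -0.64 and -0.69 with both libraries. Across populations the same periods gave Dnajb1 medians of 605, 130 and 331 CPM in FAP, 527, 125 and 325 in endothelial cells, 377, 84.8 and 276 in inflammatory cells, 5080, 79.3 and 1005 in MP and 158, 127 and 218 in pericytes, each lowest over days 1 to 4. In pericytes the range over days 1 to 4, 58.6 to 259 CPM, held both undamaged values. In total muscle the Dnajb1 medians were 14.7, 20.6 and 13.2 CPM, highest over days 1 to 4.

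The difference between the change in a sorted population and the change in total muscle was tested directly. From undamaged to day 1, 21 members changed by less, or fell by more, in FAP than in total muscle and 0 the other way (11.5% of all genes in the same direction). The numbers were 16 and 0 in endothelial cells (6.2%), 15 and 1 in inflammatory cells (16.1%), 27 and 0 in MP (19.4%) and 2 and 0 in pericytes (0.961%). For Socs3 the difference in log2 change was -3.89 ± 0.56 in FAP, -4.75 ± 0.81 in endothelial cells, -2.99 ± 0.59 in inflammatory cells and -6.80 ± 0.69 in MP, and for Fos it was -2.28 ± 0.53, -2.71 ± 0.64, -1.51 ± 0.54 and -6.15 ± 0.69. Nr4a3 was the 1 gene in the other direction, in inflammatory cells (3.04 ± 1.10, adjusted p = 0.0396). To day 3 the numbers lower were 5 in FAP (7.26% of all genes), 2 in endothelial cells (4.01%), 12 in inflammatory cells (15.9%), 21 in MP (22.2%) and 4 in pericytes (11.2%). With total muscle libraries that share a code summed, the day 1 counts were 3 in FAP, 0 in endothelial cells, 3 in inflammatory cells, 0 in MP and 0 in pericytes, and the day 3 counts 0, 0, 1, 2 and 0. Summing leaves fewer samples, and the share of all genes called under it is not given here. A loss of calls particular to the members therefore cannot be told from a loss over all genes. The residual SD of a member on the log2 scale had a median of 0.20 in total muscle (0.19 over all genes), against 0.93 in endothelial cells (0.67), 0.80 in FAP (0.63), 0.65 in inflammatory cells (0.60), 1.14 in MP (0.73) and 0.83 in pericytes (1.59).

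Deviations within sorted cells moved together between populations. Endothelial and FAP libraries that carry the same code were paired, 21 pairs over 6 days. Each gene's deviation from the mean of the paired libraries of its population and day was compared within pairs. What a shared code means is not given. Over the pairs, Pearson's r was 0.70 for Fos (Spearman's rho 0.67, adjusted permutation p = 0.00348), 0.69 for Egr1 (0.61, 0.00285), 0.79 for Hspa1a (0.72, 0.00285) and 0.80 for Dnajb1 (0.69, 0.00285), adjusted over the 4 genes, with FAP libraries permuted within a day 100000 times. Without the 2 pairs farthest from the median, r was 0.56, 0.52, 0.67 and 0.69, and without the doubted libraries, 19 pairs gave 0.68, 0.66, 0.86 and 0.80. Among the 12 pairs with an R52 code alone it was 0.84, 0.88, 0.76 and 0.90, and there Spearman's rho of Hspa1a was 0.57 with an adjusted permutation p = 0.0760. As a description, the median r over the 36 members was 0.76, from 0.25 for Hspe1 to 0.92 for Jun, and 33 exceeded 0.5. Over 13333 genes the median was 0.39, and 4441 of them exceeded 0.5. The relation was not without exception, since Egr1 on day 2 was 0.81 above its mean in an endothelial library and 0.25 below it in the FAP library of the same code.

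**Figure D5:**
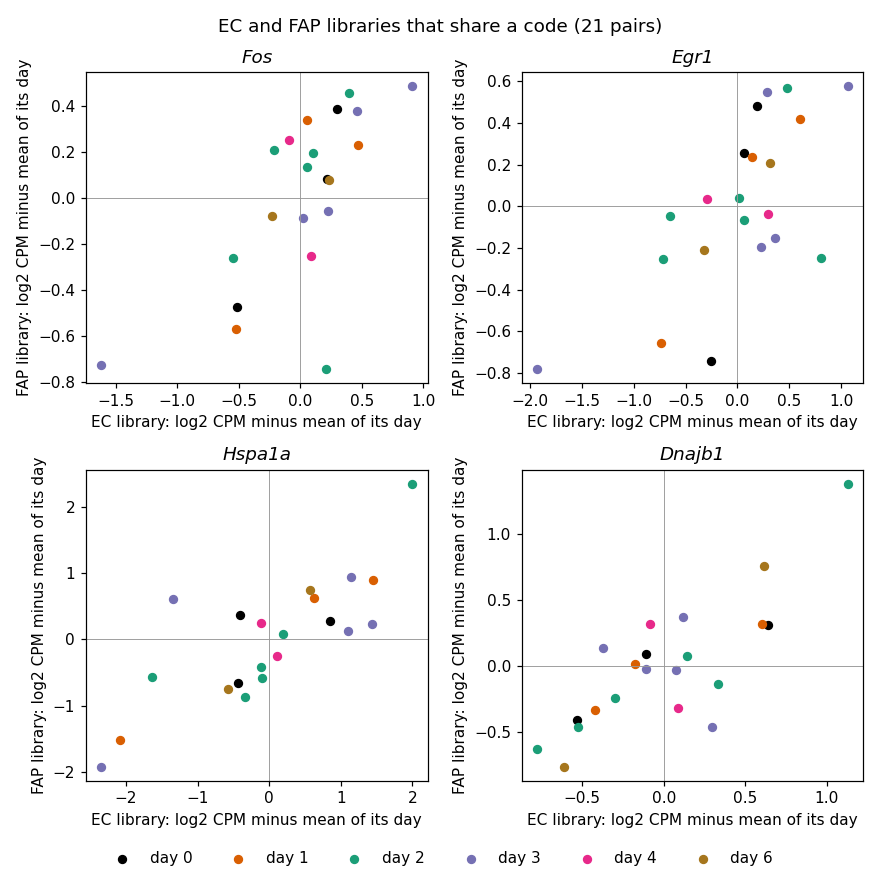
Deviation of log2 level from the mean of the paired libraries of that population and day, for Fos, Egr1, Hspa1a and Dnajb1. Endothelial libraries are on the x axis and FAP libraries of the same code on the y axis. Each point is 1 of 21 pairs, coloured by day, and r is 0.70, 0.69, 0.79 and 0.80 in panel order.

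On day 2, which has 3 libraries with an R52 code and 3 without in each of 3 populations, members could be compared between the codes. In endothelial cells 24 members had all 3 R52 libraries below the other 3 (22.3% of all genes), in FAP 16 (11.7%) and in inflammatory cells 17 (20.5%), and 0 (16.4% of all genes), 4 (12.4%) and 4 (15.3%) had them above. These counts are in plain CPM, and with TMM scaling 21, 16 and 18 were below and 1, 4 and 4 above. Dnajb1 was at 83.5 to 116 CPM with an R52 code and 158 to 314 without in endothelial cells, at 79.8 to 104 and 112 to 321 in FAP, and at 57.0 to 69.1 and 84.4 to 143 in inflammatory cells. The ranges did not overlap in any of these populations. Whether R52 marks a batch of animals, sorts or libraries is not given.

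CCR2KO libraries were compared with WT over the days that both have, with day as a factor. Ccr2 itself had a median of 0 CPM in FAP of CCR2KO mice (13 of 18 libraries at 0) against 0.938 in WT, and of 0.0831 in endothelial cells (0 to 7.73, 5 of 14 at 0) against 5.47. In MP it was at 0 in 6 of 9 CCR2KO libraries, with a WT median of 4.59. In FAP 2 members were called, both higher in CCR2KO (2.14% of all genes in either direction). Fosl1 ran from 0.906 to 48.9 CPM in 32 WT libraries (median 7.43) and from 1.22 to 95 in 18 CCR2KO libraries (median 15.1), with a log2 fold change of 1.42 ± 0.26 (adjusted p = 0.00131). Ier5 ran from 35.9 to 183 (median 104) and from 31.9 to 454 (median 139), with 0.76 ± 0.21 (0.0370). The ranges overlapped for both genes. The FAP count was 4 with DESeq2, 1 with the R52 code as a covariate, 1 with scaling to library totals and 0 with a replicate block. It was 0 without the libraries numbered 1, and 1 without those numbered 3, 4 or 5.

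edgeR called 0 members in endothelial cells (0.0797% of all genes) and in MP (0.00683%). At an unadjusted p under 0.05, edgeR had 1 member in endothelial cells and 17 in MP, 15 of them lower in CCR2KO, and DESeq2 called 0 and 7. The share of all genes at the unadjusted threshold was not computed, and that of DESeq2 is not given here. Whether these counts are unusual therefore cannot be said. Over the 7 days both genotypes have, Fos ran from 331 to 13940 CPM in WT MP (median 3300, n = 13) and from 214 to 13130 in CCR2KO MP (median 666, n = 9), with a log2 fold change of -1.04 ± 0.30 (adjusted p = 0.257). In FAP the Fos medians were 2463 and 3070 CPM (0.01 ± 0.18), and over the 9 days shared in endothelial cells 1641 and 1613 (0.02 ± 0.22). Of the other pathway genes, Sgk1 (0.77 ± 0.20, adjusted p = 0.0227), a serum-induced kinase, and Sesn2 (0.81 ± 0.22, 0.0295), a stress-induced regulator of growth signalling, were called higher in CCR2KO FAP.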

How the data were processed

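RNA was read as paired ends of 43 bases from a stranded mRNA kit on an Illumina NextSeq 500, per the labels' protocols. The authors deposited whole-number counts per gene symbol, 1 table for each population and genotype. The submitters' processing notes name bcl2fastq, Bowtie, STAR and the mm10 build; no version, counting program, strand setting or annotation was given in the sources used here. Rows that name no gene (no feature or ambiguous) held 3.89% to 57.3% of a library's counts (median 8.32%) and stayed out of library sizes and tests.

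From the counts, TMM-scaled CPM were computed over all libraries, and each comparison was fitted over all genes that passed edgeR's filter on low counts (minimum 10) with edgeR's quasi-likelihood test (edgeR 4.0.16, limma 3.58.1, R 4.3.3). Fold changes come with a prior count of 2, and p-values were adjusted by Benjamini-Hochberg over all genes tested. DESeq2 1.42.0 was an alternative. Comparisons within a population used 1 mean per day, those with total muscle 1 mean per population and day, and those of genotype had day as a factor. Fits were tested on simulated counts. No 2 libraries of a group were identical over 169 pairs. Animals are not identified in the labels, and p-values therefore reflect only how far libraries spread, which may be technical. Of comparisons with at least 3 numbered pairs, deviations of equal replicate numbers correlated above 0.1 in every pair in 0 of 4 over time, 0 of 2 with total muscle and 1 of 4 of genotype, which was FAP on day 10.

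The members and gene lists were chosen with earlier results of these data known. All 36 members are named. Values in every library are given for Fos, Egr1, Atf3, Hspa1a, Hspa1b and Dnajb1 and for the called member with the largest rise and fall of a comparison, and up to 4 called genes of each other list with at least 10 CPM. Promoters were read from RefSeq sequence and coordinates of antisense neighbours from a GENCODE annotation of the same build.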

Additional observations from a re-analysis of the deposited data

Results flagged for a closer look

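In 54 tests of 1 library standing apart from the others of its group, over groups of at least 4, 7 did by Dixon's criterion, where chance gives about 1 in 20. All 7 lay on day 2. All but that of Egr1 lay in replicate 1, which carries the same code in endothelial cells, FAP and inflammatory cells. Hspa1a was at 1920 CPM in endothelial cells (others 155 to 550) and 369 in FAP (39.5 to 76.9). Hspa1b was at 2206 (104 to 495) and 474 (42.4 to 87.7), and at 562 in inflammatory cells (73.2 to 223). Dnajb1 was at 321 in FAP (79.8 to 130). Egr1 was at 2468 in FAP replicate 4 (1398 to 1714). Values that share a code, or come from the near copies Hspa1a and Hspa1b, are not separate cases to set against 1 in 20.

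The change after injury differed between sorted cells and total muscle, by the test of the difference itself, for 16 members in endothelial cells, 21 in FAP, 16 in inflammatory cells, 27 in MP and 2 in pericytes on day 1, against 13.1%, 22.7%, 25.5%, 31.8% and 1.28% of all genes. On day 3 the numbers were 2, 5, 12, 21 and 4, against 8.97%, 13.8%, 25.3%, 37.3% and 13% of all genes, so that those of endothelial cells, FAP and pericytes lay near or below the share of all genes. With total muscle libraries that share a code summed, they were 0, 3, 3, 0 and 0 on day 1 and 0, 0, 1, 2 and 0 on day 3, with the share of all genes not given here.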

How the results depend on the processing

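Scaling to library totals, a separate spread for sorted and total libraries, summing total muscle libraries that share a code and leaving out the doubted libraries were chosen after seeing the data. Of 189 counts of called members under other settings than leaving out a library, 155 lay within 1.5 times the reported one. The shares of all genes called under each setting are not given here. DESeq2 gave 4 calls for CCR2KO in FAP, 7 in MP, 8 and 7 for endothelial cells on days 1 and 3, 8 for FAP on day 3, 8 for inflammatory cells on day 1 and 24 for MP on day 1. The R52 code as a covariate gave 1 for CCR2KO in FAP, 8 for endothelial cells, 10 for FAP and 12 for inflammatory cells on day 3, and 22 for MP on day 1. Scaling to library totals gave 1 for CCR2KO in FAP, 2 for endothelial cells on day 3 and 10 for inflammatory cells on day 1. No filter on low counts gave 2 for endothelial cells on day 3 and 22 for MP on day 1, RLE scaling gave 3 for endothelial cells on day 3, and leaving out the doubted libraries gave 1 and 4 for endothelial cells on days 1 and 3. With total muscle libraries summed by code, undamaged MP had 22 and pericytes 6, and the differences in change had 0 in endothelial cells, 3 in FAP, 3 in inflammatory cells, 0 in MP and 0 in pericytes on day 1, and 0, 0, 1, 2 and 0 on day 3; the summed setting leaves fewer samples. The cause of the other shifts was not tested.

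With the replicate number as a block, 0 members were called for CCR2KO in FAP and 2 for endothelial cells on day 3, and the other counts lay within 1.5 times the reported ones. Leaving out 1 library or number gave 0 to 2 calls for CCR2KO in FAP, 1 to 4 and 0 to 8 for endothelial cells on days 1 and 3, 2 to 6 for FAP on day 3, 0 to 7 and 2 to 8 for inflammatory cells, 4 to 14 and 10 to 24 for MP, and 0 to 14 for pericytes on day 3. The highest pericyte count on day 3 came without replicate 2, which left the shallowest of all libraries alone on that day. Without the single pericyte library of day 1 no value could be had for day 1.

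Over the settings, log2 fold changes were read for 6 members alone, Fos, Egr1, Atf3, Hspa1a, Hspa1b and Dnajb1. Among these, 55 values changed sign, 54 of them not called as reported, and none was called with the other sign. The signs of the other members were not followed over the settings. Of CCR2KO against WT in endothelial cells, Fos was -0.0053 with DESeq2, -0.12 with R52, -0.0054 with RLE, -0.0048 with no filter, -0.24 with the block and -0.063 with library totals, and Atf3 was -0.36 with R52 and -0.30 with the block. In FAP, Fos was -0.0076, -0.055, -0.0075, -0.059 and -0.077, and Dnajb1 -0.0087, -0.15, -0.0089, -0.036 and -0.091, with DESeq2, R52, RLE, the block and library totals. With library totals Atf3 was -0.11 in inflammatory cells and 0.0087 in total muscle on day 3. Fos was 0.051 in FAP on day 3 with the block and -0.079 in pericytes on day 1 with R52, and Dnajb1 was -0.099 in pericytes on day 3 with no filter. Leaving out 1 library, the ranges that crossed 0 were, for CCR2KO in endothelial cells, Atf3 -0.56 to 0.29, Egr1 -0.77 to 0.030 and Fos -0.56 to 0.15, in FAP Atf3 -0.19 to 0.084, Dnajb1 -0.036 to 0.18 and Fos -0.066 to 0.059, and in MP Dnajb1 -0.89 to 0.17. On day 1 they were Fos in FAP -0.34 to 0.077, in pericytes Atf3 -0.21 to 1.32 and Fos -0.26 to 1.10, and in total muscle Hspa1a -0.15 to 3.14. On day 3 they were in inflammatory cells Atf3 -0.35 to 1.43, Egr1 -0.84 to 0.81 and Hspa1a -1.22 to 0.52, in FAP Fos -0.22 to 0.14, in pericytes Dnajb1 -0.35 to 0.43, Fos -1.45 to 0.16, Hspa1a -3.68 to 0.25 and Hspa1b -0.53 to 0.095, and in total muscle Atf3 -1.21 to 0.13. The pairwise r of endothelial and FAP deviations kept its sign and its call in all 16 alternatives, whereas Spearman's rho of Hspa1a was not called with R52 codes alone (adjusted permutation p = 0.0760).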
